A study of Bos taurus with 6 samples.

Results

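Butyrate raised the transcripts of 7 of 10 core genes of TGF-beta signalling in rumen epithelial primary cells (REPC), and none of the 10 was called lower. Of all tested genes, 32.5% were called higher and 25.9% lower by the same rule. The stricter thresholds of the study, applied here to a test other than the study's own, called 0 of the 10 genes. The genes were chosen by name, with earlier results of these data known. They are the ligand genes TGFB1, TGFB2, TGFB3 and INHBA and the receptor genes TGFBR1 and TGFBR2. The others are the receptor-activated SMADs SMAD2 and SMAD3 and the inhibitory SMADs SMAD6 and SMAD7. Each name stood on 1 of the 32183 rows in every table, and all 10 genes were among the 15813 genes tested. The REPC came from the rumen lining of a Holstein bull calf aged 2 weeks that was raised on milk replacer alone. Butyrate, a short-chain fatty acid of rumen fermentation that inhibits histone deacetylases, was present at 5 mM for 24 h in 3 cultures, and 3 control cultures received none. RNA was sequenced from each culture, and the level of a gene is its FPKM, its sequenced fragments scaled by transcript length and by the fragments mapped in the library. Since all cultures came from 1 animal, the p-values measure the spread between cultures and not between animals.

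TGF-beta ligands are secreted in a latent form, and once released they bind TGFBR2, which then phosphorylates TGFBR1. Activin A, a dimer of the INHBA product, uses its own receptors but meets TGF-beta at the same step, the phosphorylation of SMAD2 and SMAD3. These SMADs enter the nucleus with SMAD4 and change transcription, whereas SMAD6 and SMAD7 are feedback inhibitors that act at the receptors and on the other SMADs. In epithelial cells the pathway is known for restraining proliferation and for inducing genes of the extracellular matrix and the cytoskeleton.

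Total FPKM was 678035 to 681912 in the control cultures and 619401 to 629037 in the butyrate cultures. No library stood apart from its group: across genes, log2(FPKM + 1) correlated at about 0.995 (Pearson's r) within groups and at 0.963 to 0.966 between groups. Epithelial markers were present, with KRT8 at a control mean FPKM of 1379.8 ± 61.4 (SD, n = 3) and KRT5 at 401 ± 30.7, while EPCAM was low at 0.540 ± 0.174. The mesenchymal genes VIM and COL1A1 were also high, at control means of 2464 ± 61.0 and 1149 ± 34.9. S100A4, COL1A2, COL3A1, THY1 and DCN of the same fibroblast list were at 1252, 459, 313, 21.5 and 6.9. PDGFRA, LUM, PDGFRB and FAP of this list were scarce, at 0.306, 0.149, 0.0203 and 0.015, and TCF21 was listed at 0. Of the smooth muscle markers, TAGLN, ACTA2 and CNN1 were high, at control means of 3074 ± 83.2, 2752 ± 99.7 and 805 ± 15.7. MYH11, DES and MYOCD of the same list were scarce, at 0.662, 0.367 and 0.185. Leukocyte and endothelial markers were low. PTPRC of leukocytes and CDH5 of endothelium were listed at 0 in all 6 cultures. CD14 was at a control mean of 5.57 ± 1.10 and PECAM1 at 1.54 ± 0.199. In bulk RNA, a change in the share of a cell type and a change in RNA per cell cannot be told apart.

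Differences were tested with limma on log2(FPKM + 0.1), a scale that understates changes of genes with low FPKM, and a gene was called changed at a Benjamini-Hochberg adjusted p under 0.05 over all genes tested. With this rule 7 of the 10 genes were called higher and 0 lower, against 32.5% of all tested genes called higher, 25.9% called lower and 58.4% called in either direction. At an unadjusted p under 0.05 limma also gave 7 higher and 0 lower. In the same 7 genes all 3 butyrate values lay above all 3 control values, an arrangement found in 36.1% of all tested genes, while the reverse, found in 28.9%, occurred in none of the 10. The median log2 fold change was 0.43 over the 10 genes and 0.10 over all tested genes. The rises were moderate, from 0.24 for SMAD2 to 0.77 for SMAD6, and 75.0% of all tested genes had a lower log2 fold change than SMAD6. The stricter thresholds of the study require a Bonferroni p under 0.05 together with a change of more than 2 on the log2 scale. Applied to the limma fit, they called 0 of the 10 genes, against 2.46% of all tested genes called higher and 1.51% called lower. The study ran its own test with Cufflinks, so these are not the study's calls. The lowest Bonferroni-adjusted p from limma among the 10 genes was 0.403.

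**Figure D1:**
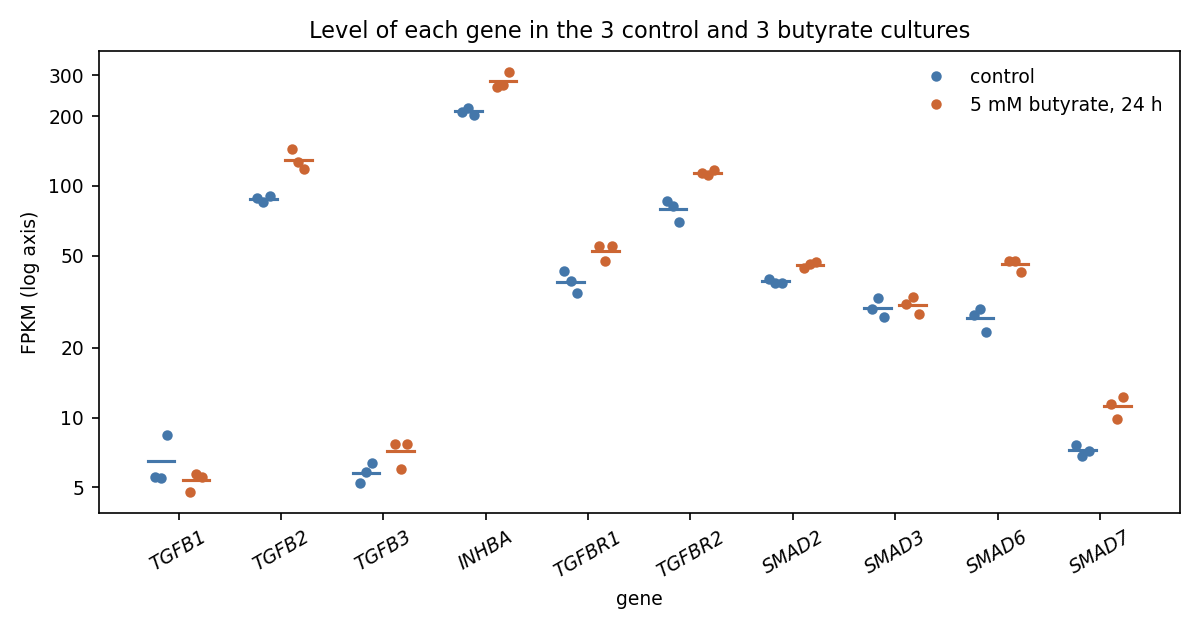
FPKM of each gene (log axis) in the 3 control and 3 butyrate cultures, with a point for each culture and a line at the group mean. The points of the groups are apart for TGFB2, INHBA, TGFBR1, TGFBR2, SMAD2, SMAD6 and SMAD7, and they overlap for TGFB1, TGFB3 and SMAD3.

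Among the ligands, TGFB2 carried nearly all of the TGF-beta transcript. TGFB2 (chromosome 16 from 22495429 to 22590144) had FPKM values of 89.0, 85.5 and 90.1 in control replicates 1 to 3 and of 145, 127 and 118 in butyrate replicates 1 to 3. The lowest butyrate value was above the highest control value, and butyrate replicate 1 was the highest of the 6 cultures. The mean of 88.2 ± 2.38 in control became 130.0 ± 13.8 after butyrate (SD, n = 3 each), and the log2 fold change was 0.55 ± 0.074 (SE; limma, adjusted p = 0.000239). The lowest confidence bound that the authors deposited for a butyrate culture, an FPKM of 112, was above the highest bound for a control culture, 95.1.

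TGFB1 and TGFB3, whose products act on the same receptors, were scarce. TGFB1 (chromosome 18 from 50771354 to 50785924) was at an FPKM of 5.56, 5.50 and 8.45 in control and of 4.77, 5.73 and 5.57 after butyrate. Control replicate 3 was the highest of the 6 cultures, the other 5 lay close together and the groups overlapped. The log2 fold change was -0.25 with a 95% interval from -0.66 to 0.16 (limma, adjusted p = 0.264), and it was -0.05 without control replicate 3. TGFB3 (chromosome 10 from 88242178 to 88275228) was at 5.22, 5.81 and 6.36 in control and at 7.73, 6.01 and 7.69 after butyrate. Butyrate replicate 2 lay within the control range, and the other butyrate cultures lay above it. The log2 fold change of 0.29, with a 95% interval from -0.03 to 0.61, did not pass (limma, adjusted p = 0.103). It passed without butyrate replicate 2, at 0.41 (limma, adjusted p = 0.0349), and with FPKM rescaled to a common sum, at 0.42 (limma, adjusted p = 0.0308). The span of TGFB3 overlaps IFT43, an intraflagellar transport gene that rose from an FPKM of 30.5 ± 2.88 to 67.4 ± 3.17, and whether the counting used strand is not given in the sources used here.

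Summed within a culture, the TGFB1, TGFB2 and TGFB3 transcripts came to an FPKM of 99.8, 96.9 and 105 in control and of 158, 138 and 132 after butyrate. TGFB2 made up 89.2%, 88.3% and 85.9% of this sum in control and 92.1%, 91.5% and 89.9% after butyrate. The share of TGFB1 was 5.57%, 5.68% and 8.05% in control and 3.02%, 4.14% and 4.23% after butyrate, so that the groups did not overlap. Per culture, the log2 ratio of TGFB1 to TGFB2 was -3.77 ± 0.32 (SD, n = 3) in control and -4.58 ± 0.28 (SD, n = 3) after butyrate. The difference of -0.81 had p = 0.1 in an exact permutation test over the cultures (two-sided; adjusted over 4 ratios, 0.27), which is the smallest p that 3 cultures against 3 allow.

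**Figure D2:**
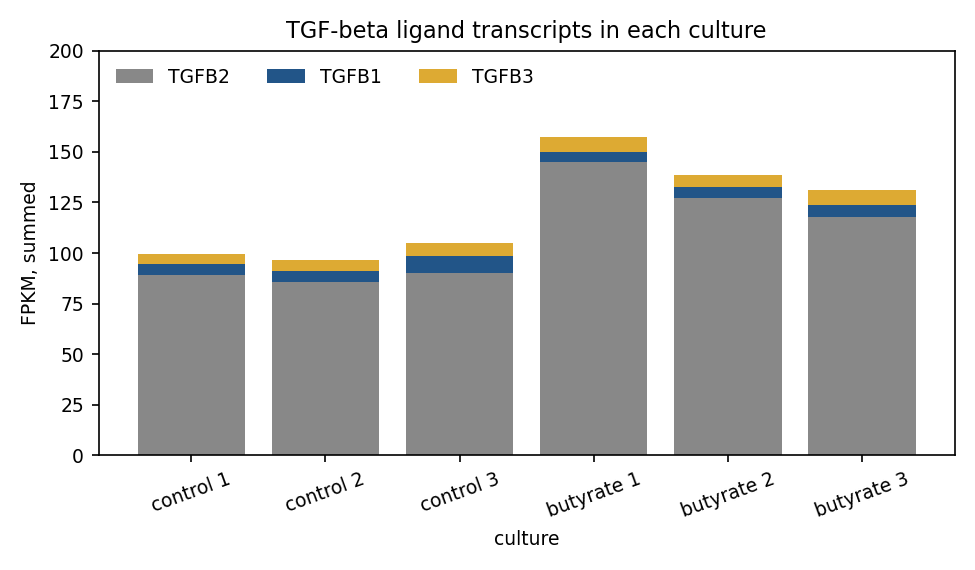
FPKM of TGFB2, TGFB1 and TGFB3 stacked for each of the 6 cultures. TGFB2 fills between 85.9% and 92.1% of each bar, and the 3 butyrate bars, at 132 to 158, stand above the 3 control bars, at 96.9 to 105.

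INHBA, which encodes the beta A subunit of activin A and inhibin A, was the most abundant of the 10 genes, and its control mean was above that of 96.1% of all tested genes. INHBA (chromosome 4 from 79983210 to 80002250) had FPKM values of 209, 218 and 203 in control and of 266, 273 and 311 after butyrate. Every butyrate culture was above every control culture. The mean went from 209.7 ± 7.64 to 283 ± 24.1 (SD, n = 3 each), a log2 fold change of 0.43 ± 0.063 (SE; limma, adjusted p = 0.000409).

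Both TGF-beta receptor genes rose. TGFBR1, the type I receptor kinase (chromosome 8 from 64570043 to 64645451), was at an FPKM of 42.9, 38.7 and 34.4 in control and of 54.9, 47.3 and 54.9 after butyrate. TGFBR2, the type II receptor that binds the ligand (chromosome 22 from 5141232 to 5233083), was at 86.2, 82.2 and 69.9 in control and at 114, 111 and 117 after butyrate. Control replicate 3 was the lowest culture for both genes, and neither gene's groups overlapped. The deposited confidence bounds were apart for TGFBR2. For TGFBR1 they overlapped, with the lowest butyrate bound at 44.5 and the highest control bound at 45.4. The log2 fold changes were 0.44 ± 0.094 for TGFBR1 (SE; limma, adjusted p = 0.00375) and 0.52 ± 0.077 for TGFBR2 (SE; limma, adjusted p = 0.000434). TGFBR2 transcript made up between 66.8% and 68.0% of the sum of both receptors in control and between 67.4% and 70.1% after butyrate. The log2 ratio of TGFBR1 to TGFBR2 changed by -0.08, against an SD of 0.042 in control and 0.092 after butyrate, and the groups overlapped (exact permutation test, two-sided, p = 0.2; adjusted over 4 ratios, 0.27).

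Of the receptor-activated SMADs, SMAD2 rose slightly and SMAD3 was not called. SMAD2 (chromosome 24 from 47963393 to 48022086) was at an FPKM of 39.8, 38.3 and 38.0 in control and of 44.1, 46.1 and 46.9 after butyrate. The groups were narrow and did not overlap, although the deposited confidence bounds of single cultures did. The log2 fold change was 0.24 ± 0.055 (SE; limma, adjusted p = 0.0054). SMAD3 (chromosome 10 from 13857917 to 13980372) was at 29.3, 32.7 and 27.3 in control and at 31.0, 33.2 and 28.0 after butyrate, and the groups overlapped almost completely. Its log2 fold change of 0.05 had a 95% interval from -0.16 to 0.25 (limma, adjusted p = 0.686) and was -0.01 without control replicate 3 and without butyrate replicate 2. The log2 ratio of SMAD3 to SMAD2 was -0.38 ± 0.14 (SD, n = 3) in control and -0.57 ± 0.15 (SD, n = 3) after butyrate, with overlapping groups (exact permutation test, two-sided, p = 0.2; adjusted over 4 ratios, 0.27).

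Both inhibitory SMADs rose, and SMAD6 had the highest log2 fold change of the 10 genes. SMAD7 came next, but with quantile normalization its 0.57 was below TGFB2, TGFBR2 and INHBA, at 0.69, 0.65 and 0.61, and without butyrate replicate 3 its 0.55 was below the 0.62 of TGFB2. SMAD6, which mainly restrains the BMP branch (chromosome 10 from 13387772 to 13584572), was at an FPKM of 27.7, 29.5 and 23.5 in control and of 47.5, 47.6 and 42.6 after butyrate. SMAD7, which also blocks TGFBR1 (chromosome 24 from 49069669 to 49098734), was at 7.60, 6.86 and 7.18 in control and at 11.5, 9.84 and 12.3 after butyrate. For both genes every butyrate culture was above every control culture. The deposited confidence bounds were apart for SMAD6. For SMAD7 they overlapped, with the lowest butyrate bound at 8.38 and the highest control bound at 9.28. SMAD6 rose from a mean of 26.9 ± 3.07 to 45.9 ± 2.89 (SD, n = 3 each), a log2 fold change of 0.77 ± 0.093 (SE; limma, adjusted p = 0.000128). SMAD7 rose from 7.21 ± 0.369 to 11.2 ± 1.23 (SD, n = 3 each), a log2 fold change of 0.62 ± 0.11 (SE; limma, adjusted p = 0.00128). SMAD6 made up between 76.6% and 82.9% of the sum of both in all 6 cultures, and the log2 ratio of SMAD7 to SMAD6 changed by -0.15, within the SD of 0.20 in control and 0.24 after butyrate (exact permutation test, two-sided, p = 0.5; adjusted over 4 ratios, 0.5).

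**Figure D3:**
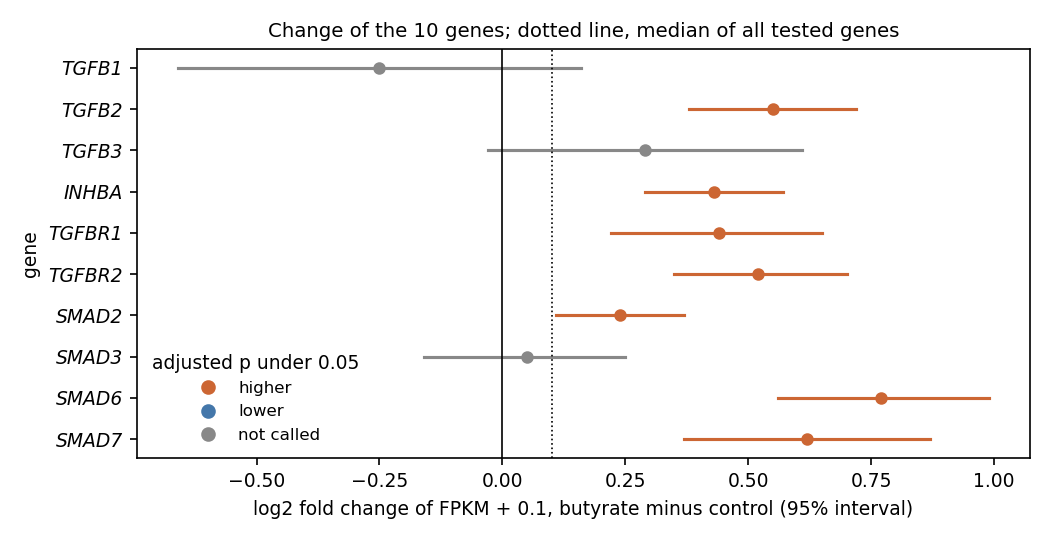
Log2 fold change of FPKM + 0.1 (butyrate minus control) of each gene, with its 95% interval from limma; the dotted line is the median of all tested genes. The 7 called genes lie between 0.24 and 0.77, and the intervals of TGFB1, TGFB3 and SMAD3 include 0.

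SMAD6 and SMAD3 lie 273 kb apart on chromosome 10, with 2 other entries between them, and SMAD2 and SMAD7 lie 1048 kb apart on chromosome 24. SMAD6 rose while its neighbour SMAD3 was not called, and SMAD2 and SMAD7 both rose.

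Because FPKM is divided by length, the levels of different genes can be set side by side. In control the order was INHBA, TGFB2, TGFBR2, SMAD2, TGFBR1, SMAD3, SMAD6, SMAD7, TGFB1 and TGFB3. INHBA was 2.38 times as high as TGFB2, while the values of TGFB2 and TGFBR2 overlapped, as did those of SMAD2 and TGFBR1, those of SMAD3 and SMAD6, and those of SMAD7, TGFB1 and TGFB3 from each to the next. After butyrate INHBA led again, followed by TGFB2, TGFBR2 and TGFBR1, with no overlap between neighbours among these. SMAD6 moved from below SMAD3 to a level that overlapped those of TGFBR1 and SMAD2, and SMAD3, SMAD7, TGFB3 and TGFB1 followed, each apart from its neighbours. The half-width of the deposited confidence interval was between 4.67% and 6.35% of the FPKM for TGFB2, INHBA, TGFBR1 and TGFBR2. It was widest for TGFB1, at 26.7% to 34.6%, followed by SMAD7 and TGFB3, at 14.4% to 22.2% and 15.2% to 19.0%.

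SMAD6 had the largest rise of the 10 genes. The tested genes with a name other than a LOC number whose log2 profile over the 6 cultures, relative to the control mean, was closest to that of SMAD6 were ROBO1, ATP13A3 and DDX58, at root mean square differences of 0.0485, 0.05 and 0.0503. Such profiles were common, and 359 of 13218 named genes lay within 0.15 of SMAD6. TGFB1 had the only fold change below 0, which did not pass the test, and PPP1R12B, SMNDC1 and CBY1 were closest to it, at 0.0747, 0.0893 and 0.101.

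The rest of the pathway was read from 6 lists of textbook genes: other ligands, other receptors, other SMADs, proteins of latency and activation, extracellular antagonists and intracellular regulators. Of their 90 genes, 89 were listed and 70 passed the filter on low FPKM. Among these 70, 26 were called higher, 13 lower and 31 neither, and the median of their log2 fold changes was 0.20. Of all tested genes, 32.5% were called higher and 25.9% lower. Of those whose mean FPKM reached 1, the shares were 33.0% and 32.2%. The same shares serve as the comparison for the counts of each list below.

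Of 12 other receptors and co-receptors, 9 were tested, 5 rose and none of these 9 was called lower; at an unadjusted p under 0.05 none fell in limma either. ENG (endoglin), a co-receptor of the TGF-beta superfamily, went from FPKM values of 0.376, 0.407 and 0.656 to 4.36, 5.57 and 5.24, a log2 fold change of 3.18 ± 0.24 (SE; limma, adjusted p = 7.06e-06). ENG is also abundant in endothelium. Of a list of 6 endothelial markers, 3 were tested and 2 rose. PECAM1 went from 1.54 ± 0.199 to 3.95 ± 0.922 and VWF from 0.456 ± 0.173 to 3.31 ± 0.307. EMCN was not called (limma, adjusted p = 0.0916), KDR and TEK did not pass the filter on low FPKM, and CDH5 was listed at 0. The summed FPKM of the list was 2.10 to 2.42 in control and 6.94 to 9.21 after butyrate. The part of endothelial cells in the rise of ENG was not tested. The activin type II receptor ACVR2A went from a mean of 3.57 ± 0.549 to 6.78 ± 0.733, and ACVR1, a type I receptor of the BMP branch, from 14.6 ± 1.37 to 21.3 ± 0.706, with log2 fold changes of 0.91 and 0.55 (limma, adjusted p = 0.000914 and 0.000654). TGFBR3 (betaglycan), which presents TGFB2 to TGFBR2, rose by 0.44 and BMPR2 by 0.48 on the log2 scale (limma, adjusted p = 0.0361 and 0.0298). Each of these calls was lost in 5 of the 6 fits that left out a library and with quantile normalization: TGFBR3 kept it without butyrate replicate 2 and BMPR2 without control replicate 1. BMPR1A, with 5.28 ± 0.358 in control and 5.88 ± 0.375 after butyrate, did not pass (limma, adjusted p = 0.284). ACVR1B, the type I receptor through which activin acts on SMAD2 and SMAD3, had control and butyrate means of 0.904 ± 0.367 and 1.28 ± 0.140 with overlapping groups (limma, adjusted p = 0.161), and it passed only without control replicate 1, at 0.80.

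Of the 4 other SMADs, SMAD1 rose and the others were not called. SMAD1, which carries BMP signals, was at an FPKM of 11.3, 10.6 and 11.3 in control and of 22.7, 27.8 and 20.1 after butyrate, a log2 fold change of 1.07 ± 0.12 (SE; limma, adjusted p = 7.41e-05). SMAD4, the shared partner of the receptor-activated SMADs, was at 18.1, 16.4 and 16.7 in control and at 17.1, 12.7 and 15.9 after butyrate, and the groups overlapped (log2 fold change -0.17, limma, adjusted p = 0.235). SMAD5 and SMAD9 had log2 fold changes of 0.09 and 0.60 (limma, adjusted p = 0.547 and 0.12), and SMAD9 passed without control replicate 2, at 0.90.

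Of the extracellular antagonists, 11 were tested, with 4 higher, 3 lower and 4 not called. Of all tested genes, 32.5% were higher and 25.9% lower. FST (follistatin) encodes a secreted protein that binds and neutralises activin. Its FPKM was 219.8, 223 and 252 in control and 41.2, 37.5 and 38.7 after butyrate, a log2 fold change of -2.56 ± 0.066 (SE; limma, adjusted p = 3.86e-08). Set beside INHBA in the same cultures, the FPKM of INHBA was 0.949, 0.978 and 0.803 times that of FST in control and 6.45, 7.28 and 8.03 times that of FST after butyrate; this ratio was chosen after its values were seen and is given with no test. FSTL3, the other activin-binding follistatin family member, was not called at 400.4 ± 5.26 in control and 424 ± 11.8 after butyrate (limma, adjusted p = 0.0833), although it was called higher with FPKM rescaled to a common sum (0.21), with quantile normalization (0.34) and without butyrate replicate 3 (0.11). FSTL1 rose by 0.30 on the log2 scale (limma, adjusted p = 0.000566). The BMP antagonists CHRD (chordin) and GREM1 (gremlin) moved in opposite directions, CHRD from 2.22 ± 0.673 to 8.15 ± 0.284 and GREM1 from 3.09 ± 0.409 to 1.32 ± 0.232 (log2 fold changes 1.86 and -1.17, limma, adjusted p = 5.68e-05 and 0.00102). NOG (noggin), another BMP antagonist of the list, fell from 5.89 ± 0.777 to 4.04 ± 0.506 (log2 fold change -0.53, limma, adjusted p = 0.016).

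**Figure D4:**
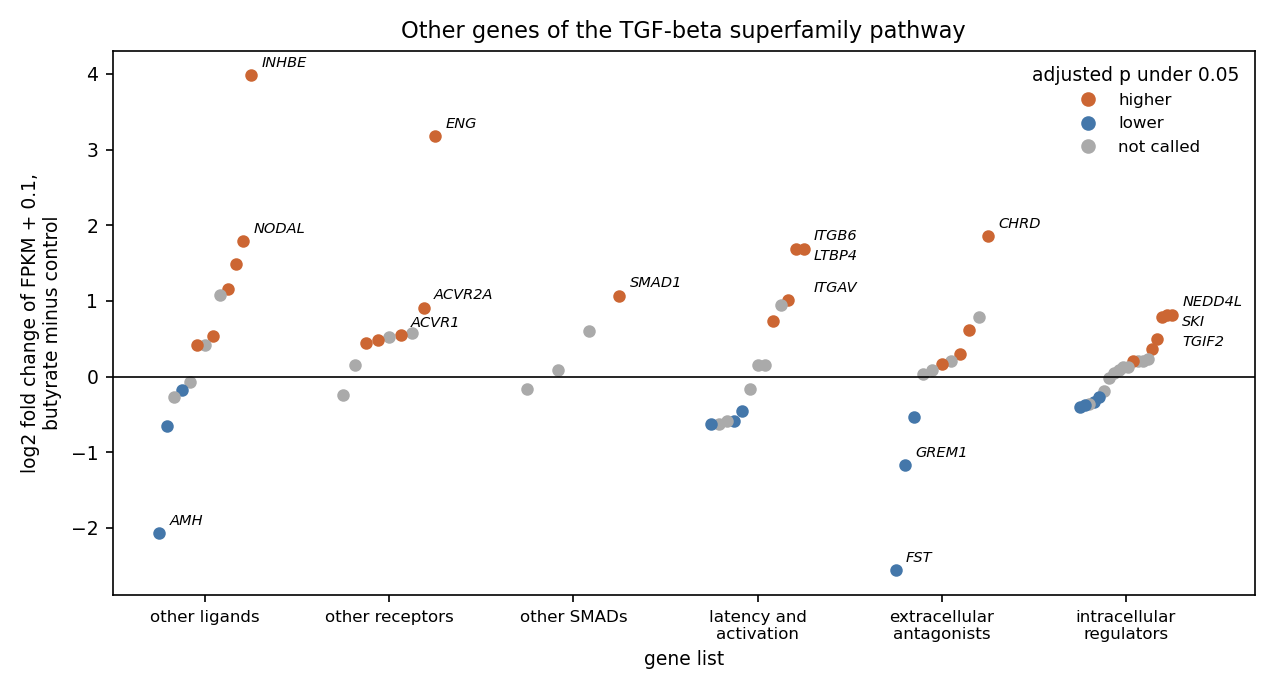
Log2 fold change of FPKM + 0.1 (butyrate minus control) of every tested gene of the 6 lists, coloured by the call at an adjusted p under 0.05, with the named genes of largest change labelled. INHBE and ENG lie highest, at 3.98 and 3.18, and FST lies lowest at this pseudocount, at -2.56.

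Of 13 tested genes of latency and activation, 4 rose, 3 fell and 6 were not called. Some of the LTBP proteins bind latent TGF-beta, and integrins that contain the alpha v subunit can release some of its forms. LTBP3 rose from a mean of 25.3 ± 1.85 to 42.4 ± 4.85 and LTBP4 from 1.61 ± 0.399 to 5.25 ± 0.291 (log2 fold changes 0.74 and 1.68, limma, adjusted p = 0.0002 and 0.000123). LTBP2 fell from 24.2 ± 0.221 to 17.7 ± 1.55 (log2 fold change -0.46, limma, adjusted p = 0.00119), and LTBP1 was not called (limma, adjusted p = 0.289). ITGAV, which encodes alpha v, went from 111, 107 and 99.0 to 226, 205 and 206, a log2 fold change of 1.01 ± 0.059 (SE; limma, adjusted p = 1.71e-06). Its epithelial partner ITGB6 rose from 0.391 ± 0.0134 to 1.5 ± 0.212 (limma, adjusted p = 0.000346) and stayed scarce beside ITGAV. ITGB8, another partner of alpha v, fell from 3.94 ± 0.935 to 2.48 ± 0.342 (log2 fold change -0.63, limma, adjusted p = 0.027). THBS1 (thrombospondin 1), another activator of latent TGF-beta and the most abundant gene of this list, fell from 380.4 ± 17.3 to 254 ± 32.8, a log2 fold change of -0.59 ± 0.088 (SE; limma, adjusted p = 0.00047).

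Of 26 other ligand genes, 13 were tested, of which 6 rose and 3 fell, and 8 of the 26 were listed at 0 in every culture. GDF15, a stress-induced member of the superfamily, was at an FPKM of 31.2, 34.2 and 23.8 in control and of 67.1, 61.7 and 68.7 after butyrate (log2 fold change 1.16, limma, adjusted p = 6.06e-05). INHBE, another activin subunit, went from 0.121, 0 and 0 to 2.54, 1.59 and 1.86 (log2 fold change 3.98, or 6.38 with a pseudocount of 0.01, limma, adjusted p = 4.7e-05 and 0.00103), and NODAL from a mean of 0.598 ± 0.240 to 2.22 ± 0.352 (limma, adjusted p = 0.00116). These genes stayed far below INHBA in level. BMP1, a secreted protease in spite of its name, rose from 26.6 ± 1.95 to 35.5 ± 1.69 (limma, adjusted p = 0.00133). INHBB rose from 1.13 ± 0.315 to 3.64 ± 1.77 and BMP4 from 8.0 ± 1.35 to 11.7 ± 2.41 (limma, adjusted p = 0.0114 and 0.0243). BMP2 fell from 5.25 ± 0.302 to 3.31 ± 0.353 (log2 fold change -0.66, limma, adjusted p = 0.0029), and its groups did not overlap. BMP7 fell by 0.18 on the log2 scale (limma, adjusted p = 0.0495) and AMH by 2.07 from a control mean of only 0.563 ± 0.168 (limma, adjusted p = 0.013), with a log2 fold change of -4.20 at a pseudocount of 0.01. Both calls were lost in several alternatives: that of BMP7 with FPKM rescaled to a common sum, at -0.06, and with any library but butyrate replicate 1 left out, at -0.20 to -0.14, and that of AMH without control replicate 1, at -1.90, and without butyrate replicate 1 or 3, at -1.76.

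Of the 20 intracellular regulators, 6 rose, 4 fell and 10 were not called. NEDD4L, a ubiquitin ligase that acts on phosphorylated SMAD2 and SMAD3, rose from 77.5 ± 6.39 to 136 ± 3.08 (log2 fold change 0.82, limma, adjusted p = 8.63e-06). The transcriptional corepressors SKI, SKIL and TGIF2 rose by 0.81, 0.36 and 0.79 on the log2 scale (limma, adjusted p = 0.00641, 0.0254 and 0.00476). The related and more abundant TGIF1 fell from 47.9 ± 3.14 to 37.8 ± 3.31 (log2 fold change -0.34, limma, adjusted p = 0.0059). Without the filter on low FPKM, SKI did not pass (limma, adjusted p = 0.0577) and neither did SKIL (0.0696). The call of SKIL was lost in 5 of the 6 fits that left out a library, all but the fit without control replicate 1, where the log2 fold change was 0.44. PMEPA1, a feedback inhibitor that holds receptor-activated SMADs at membranes, was at 310.5, 301 and 339 in control and at 238, 238 and 252 after butyrate, and its mean fell by 0.38 on the log2 scale (limma, adjusted p = 0.000279). STUB1, a ubiquitin ligase and co-chaperone, fell by 0.40 (limma, adjusted p = 3.85e-05). The feedback inhibitors SMAD6 and SMAD7 thus rose in the cultures in which PMEPA1 fell.

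Textbook target genes of TGF-beta and its SMADs did not move in 1 direction. Of 34 such genes, 33 were tested, 18 rose, 12 fell and 3 were not called, against 32.5% of all tested genes called higher and 25.9% lower. Their median log2 fold change was 0.21. CCN2 (connective tissue growth factor), a standard target, was at 1057, 1060.1 and 1136 in control and at 1665, 1613 and 1559 after butyrate, a log2 fold change of 0.57 ± 0.041 (SE; limma, adjusted p = 5.78e-06). Its lowest butyrate value lay well above its highest control value.

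Among the targets that fell, ACTA2 (smooth muscle actin) went from a mean of 2752 ± 99.7 to 1006 ± 157, CNN1 (calponin) from 805 ± 15.7 to 216 ± 23.5 and TAGLN (transgelin) from 3074 ± 83.2 to 1978 ± 141 (log2 fold changes -1.46, -1.90 and -0.64, limma, adjusted p = 3.99e-06, 1.77e-07 and 1.22e-05). Among the targets that rose were FN1 (fibronectin), from 1217 ± 61.1 to 2374 ± 206, CDKN2B, an inhibitor of the cell cycle, from 24.8 ± 1.48 to 78.1 ± 3.17, and TGM2 (transglutaminase 2), from 12.5 ± 0.950 to 83.2 ± 2.89 (log2 fold changes 0.96, 1.65 and 2.73, limma, adjusted p = 4.02e-06, 2.05e-07 and 4.16e-08). The targets ID1, ID2 and ID3 of the BMP branch, picked out after their values were seen, had log2 fold changes of -0.11, 0.03 and -0.90, of which only that of ID3 passed the test. ID1 was called lower without butyrate replicate 2, at -0.15, yet higher with quantile normalization, at 0.17, so no direction is given for it. ID2 was also called higher with quantile normalization, at 0.19.

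Marker lists moved in the same cultures, in which 32.5% of all tested genes were called higher and 25.9% lower. Of 18 epithelial markers, 14 rose and 2 fell, and their summed FPKM went from between 4310.3 and 4464 in control to between 8124 and 8167 after butyrate. All 9 tested genes of 12 fibroblast markers rose, with sums of 5599.8 to 5759.6 in control and 8005 to 8482 after butyrate, and the list shares COL1A1, COL1A2 and COL3A1 with the target genes. Of 6 smooth muscle markers, 4 fell and 1 rose, with sums of 6468 to 6796 in control and 2849 to 3456 after butyrate, and ACTA2, CNN1 and TAGLN are on both lists. MYH11, which defines mature smooth muscle, was scarce in both groups, at 0.662 ± 0.321 in control and 0.0762 ± 0.00515 after butyrate. Of 6 immune markers, 2 were tested and 1 rose, and the sums were 5.28 to 7.15 in control and 7.23 to 9.48 after butyrate. The part of these markers' cell types in the changes of the 10 genes was not tested.

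**Figure D5:**
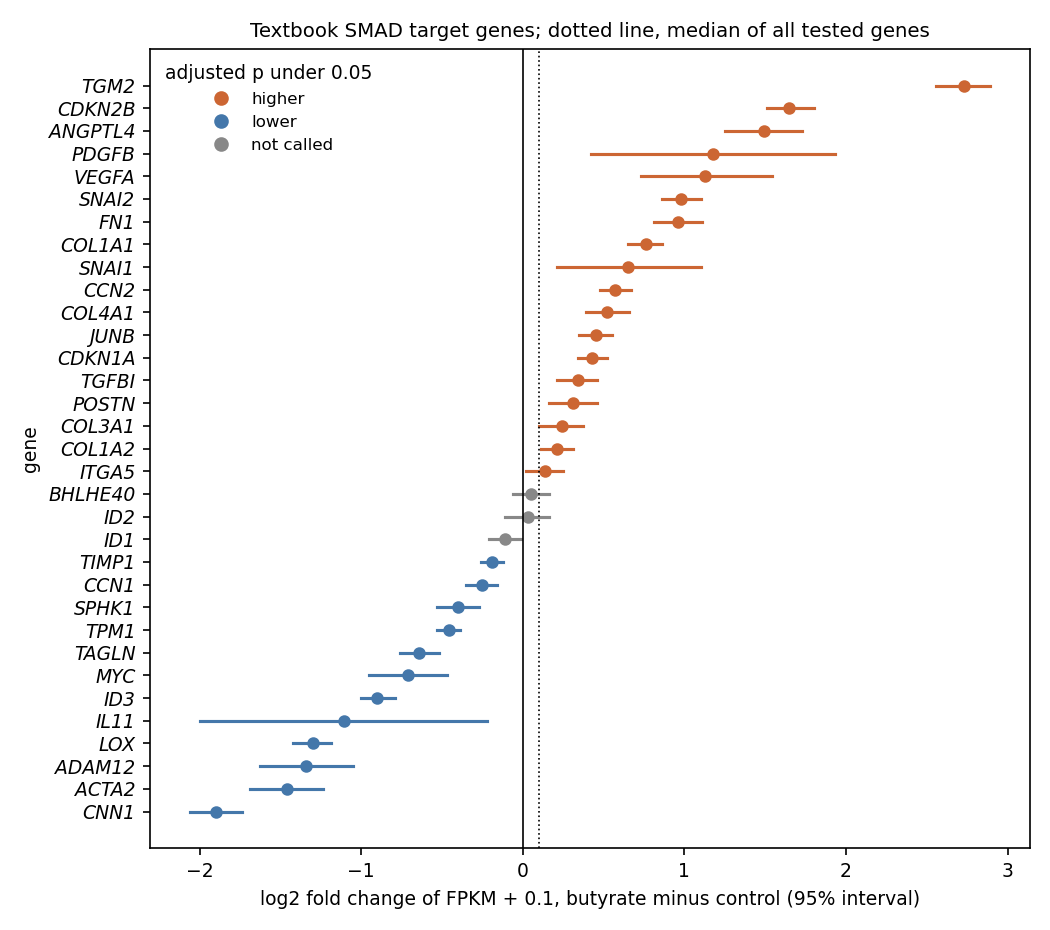
Log2 fold change of FPKM + 0.1 (butyrate minus control) of the 33 tested SMAD target genes, with 95% intervals from limma, in descending order; the dotted line is the median of all tested genes. Of these genes 18 were called higher, led by TGM2 at 2.73, and 12 lower, with CNN1 lowest at -1.90.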

How the data were processed

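RNA of 6 REPC cultures, 3 control and 3 butyrate, with an RNA integrity number of 9.0, was sequenced as 150-bp read pairs. The authors trimmed reads with Trim Galore 0.4.1, aligned them with STAR, kept uniquely mapped reads and deposited gene-level FPKM values from Cufflinks with confidence bounds; the submitters' processing notes name the build UMD3.1. The tables hold no counts, so the depth behind a value is unknown and no count test was run; precision was read from the bounds. Rows were joined by position, and starts were raised by 1 to count from 1. Chromosomes were assigned to sequences by where most of their gene names lie in RefSeq's gene table for ARS-UCD2.0, from which no coordinate was taken; CCN1 and CCN2 were found under their synonyms, and 1 gene of the lists was not listed.

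Genes with a failed estimate (2) or a mean FPKM under 0.1 were left out, and 15813 genes were tested with limma 3.58.1 (R 4.3.3), using a trend of the variance with the mean level and a pseudocount of 0.1. The fit was tested on simulated data. Ratios of 2 genes were compared by exact permutation in scipy 1.17.1. From each list, the 3 genes of highest mean FPKM and up to 3 called genes of largest change with groups apart were named. SMAD4, CCN2, PMEPA1, SKIL and FST, and any of the other SMADs and receptors, were named as well. TGIF1, LTBP1, LTBP2, ITGB8, NOG, BMP2, BMP4 and INHBB were added beside related genes after their values were seen, with the main fit only. Marker genes served to check the labels. The genes and lists were chosen with earlier results of these data known. Alternatives were pseudocounts of 0.01 and 1, no filter, a mean FPKM of at least 1, a common sum (TPM), quantile normalization, no trend, the study's thresholds, a replicate block and each culture left out. Sequences of the genes were not analysed here, and 1 gene of the target list is not reported here and was left out of its counts.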

Additional observations from a re-analysis of the deposited data

How the results depend on the processing

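The 7 calls among the 10 genes kept their direction and their side of the threshold in every alternative but the study's thresholds. Under these, applied to the limma fit, 0 of the 10 genes, 1 pathway gene higher (ENG) and 1 lower (FST), and 1 target higher (TGM2) and 0 lower were called. With a library left out in turn, 7 to 8 of the 10 genes were called higher and 0 lower, 21 to 28 pathway genes higher and 10 to 12 lower, and 15 to 18 targets higher and 11 to 12 lower. With a library left out SMAD3 ranged from -0.01 to 0.12, and it changed sign to -0.01 without control replicate 3 and without butyrate replicate 2, and SMAD5 to -0.04 with quantile normalization; neither passed in any of these fits. ID1 changed sign to 0.01 with FPKM rescaled to a common sum and to 0.17 with quantile normalization, and ID2 ranged from -0.03 to 0.06 with a library left out and was 0.19, a call, with quantile normalization. The cause of these changes was not tested. Among the named genes other than those given with the main fit only, the block ended the calls of BMP7 and BMPR2. The median log2 fold change of all tested genes, 0.10, was 0.22 with FPKM rescaled to a common sum and -0.05 with quantile normalization. In these settings 8 and 7 of the 10 genes were called higher, with 33 pathway genes higher and 10 lower in the first and 23 higher and 18 lower in the second, against 26 and 13. Of all tested genes, 37.4% were called higher and 21.4% lower in the first setting, and 27.1% and 29.6% in the second. The deviations of same-numbered cultures from their group means correlated at 0.0228, -0.00431 and 0.00177, so the numbers do not pair the cultures. With the replicate number as a block, 7 of the 10 genes were higher and 0 lower, 24 pathway genes were higher and 12 lower, and 17 targets were higher and 12 lower. Of all tested genes, 31.3% were then called higher and 25.4% lower. The differences in the 4 log2 ratios, recomputed with both other pseudocounts and with each library left out, moved by less than the SD pooled over both groups. That of TGFBR1 to TGFBR2 went from -0.08 to -0.03 without butyrate replicate 2, a move beyond the control SD of 0.042 alone. The width of the confidence bounds limits TGFB1, TGFB3 and SMAD7 most.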
